A study of Homo sapiens with 12 samples.

Results

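The genes described here are targets and feedback regulators of bone morphogenetic protein (BMP) and transforming growth factor beta (TGF-beta) signalling: ID1, ID2, ID3, SMAD6, SMAD7, BAMBI, SKIL, TGIF1 and TMEM100. They were chosen by symbol, and every probe set that the platform annotation pairs with 1 of these symbols alone was taken, which gave 15 probe sets of 22215 on the array, for 9 genes of 11963. A further probe set paired with both ID2 and ID2B was not counted. SMAD6 has 4 of these probe sets, SKIL 3, ID2 2 and each other gene 1.

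The cells were K562, an established human leukaemia line with erythroid features. All 12 arrays came from cells kept without serum in 100 ng/ml recombinant Wnt3a, with RNA taken after 8 h, so Wnt3a is common to every group and its own effect is not measured. The 4 groups held 3 arrays each: CXXC5 overexpression, which received EGFP-CXXC5 in pEGFP-C2 by nucleofection (a transient delivery into cells); empty vector, nucleofected with pEGFP-C2 alone; CXXC5 knockdown, by stable infection with a pLKO.1 lentivirus carrying CXXC5 shRNA; and scrambled shRNA, infected with a pLKO lentivirus carrying a control hairpin. CXXC5 shRNA came from 2 clones, and the labels do not assign them to the knockdown samples. Whether replicates came from separate cultures is not stated, so the p-values rest on variation among samples that could be technical only. Empty vector and scrambled shRNA cells differ both in what they carry and in how it was delivered, and these cannot be told apart. CXXC5 itself had 0 probe sets here, so the groups are called by their labels.

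BMP and TGF-beta ligands bind paired serine/threonine kinase receptors, which phosphorylate signalling SMAD proteins. These enter the nucleus with SMAD4 and switch target genes on or off. ID1, ID2 and ID3 encode inhibitors of DNA binding, helix-loop-helix proteins without a DNA-binding region that sequester E proteins and so hold back differentiation; ID1 and ID3 are classic BMP targets. SMAD6 and SMAD7 are inhibitory SMADs made in response to the pathway they block, BAMBI is a receptor without a kinase that acts as a decoy, and SKIL (SnoN) and TGIF1 are SMAD corepressors. TMEM100 encodes a small membrane protein known as a BMP target of endothelial cells. CXXC5 is a zinc finger protein that binds CpG-rich DNA and has been described as a BMP-induced inhibitor of Wnt signalling in neural stem cells of the rat.

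The labelled cell type was checked against marker genes by the percentile of a gene's brightest probe set among all probe sets. All 7 erythroid markers on the array, of 11 listed, lay between the 66.0th and the 99.1st percentile. Their summed log2 value ran from 73.1 to 73.3 with overexpression and from 73.0 to 73.6 with empty vector, and from 73.7 to 74.1 with knockdown and from 75.5 to 75.9 with scrambled shRNA. Erythroid genes thus moved with the scrambled shRNA group, and their part in the comparisons with it was not tested. Endothelial markers were low, with 0 of 5 above the median, although TMEM100 was at the 70.3rd percentile. Of the other marker lists, 1 of 5 fibroblast, 1 of 4 lymphoid and 2 of 5 monocyte and granulocyte genes lay above the median; these were COL1A1, CD3D, LYZ and ITGAM. The summed log2 value of the 5 monocyte and granulocyte markers ran from 31.9 to 32.2 in overexpression arrays and from 31.0 to 31.4 in empty vector arrays; it ran from 30.9 to 31.5 with knockdown and from 31.2 to 31.5 with scrambled shRNA, and the part of these genes in the results was not tested. The sum of the 4 lymphoid markers also lay higher with overexpression, at 27.3 to 27.8, than with empty vector, at 26.7 to 27.3, without overlap; it was 26.8 to 27.2 with knockdown and 27.0 to 27.5 with scrambled shRNA, and its part was likewise not tested. Fibroblast sums were 24.8 to 25.9 with overexpression and 25.2 to 25.97 with empty vector, and 25.3 to 26.3 with knockdown and 25.96 to 26.5 with scrambled shRNA, overlapping in both comparisons. One array stood apart in RNA or labelling quality: the 3′ to 5′ difference of the GAPDH control reached 0.87 log2 in replicate 3 of the scrambled shRNA group, whereas the remaining 11 arrays lay between 0.227 and 0.335. Detection calls were not used here, and in bulk RNA a lower level in every cell and fewer cells with the transcript cannot be told apart.

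The promoters of 5 members are printed as a description: ID3, SMAD7 and SKIL moved together, ID1 moved apart from them, and SMAD6 holds a complete SMAD-binding palindrome. No link between these sequences and the expression values was tested. Each run is the 250 bases upstream of the RefSeq transcript start (GRCh38.p14), 5′ to 3′ on the gene's strand, and for SMAD7 the most upstream of 3 listed starts was used. For the TGIF1 matches given below it was the most upstream of 7. Matches at the other starts of these genes are not given, so a motif absent here may lie there. Capitals mark exact matches, on either strand, to 6 motifs: GTCTAGAC (the SMAD-binding palindrome), CAGAC (the shorter SMAD element), GGCGCC (the GC-rich SMAD element of BMP targets), TGACGTCA (the cyclic AMP response element), TATAAA and CCAAT.
ID1 (chr20:31605039-31605288, plus strand): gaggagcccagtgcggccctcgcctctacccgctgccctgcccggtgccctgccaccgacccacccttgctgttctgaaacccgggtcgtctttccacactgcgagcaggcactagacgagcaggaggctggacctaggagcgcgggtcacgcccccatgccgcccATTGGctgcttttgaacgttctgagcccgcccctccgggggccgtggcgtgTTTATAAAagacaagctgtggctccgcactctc
ID3 (chr1:23559502-23559751, minus strand): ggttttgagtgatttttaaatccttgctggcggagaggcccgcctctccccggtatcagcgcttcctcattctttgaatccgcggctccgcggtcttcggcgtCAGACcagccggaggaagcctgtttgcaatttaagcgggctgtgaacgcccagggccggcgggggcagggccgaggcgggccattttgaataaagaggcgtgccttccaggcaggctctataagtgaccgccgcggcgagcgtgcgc
SMAD6 (chr15:66701986-66702235, plus strand): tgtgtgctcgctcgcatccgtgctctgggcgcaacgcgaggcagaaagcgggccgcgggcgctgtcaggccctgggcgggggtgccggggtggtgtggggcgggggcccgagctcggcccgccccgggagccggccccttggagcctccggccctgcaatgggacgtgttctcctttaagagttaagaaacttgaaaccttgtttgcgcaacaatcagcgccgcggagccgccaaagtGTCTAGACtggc
SMAD7 (chr18:48950966-48951215, minus strand): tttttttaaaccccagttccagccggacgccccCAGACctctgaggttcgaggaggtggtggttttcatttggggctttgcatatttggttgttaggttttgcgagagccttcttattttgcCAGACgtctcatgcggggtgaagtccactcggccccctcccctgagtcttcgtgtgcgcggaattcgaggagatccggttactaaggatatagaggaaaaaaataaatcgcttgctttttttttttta
SKIL (chr3:170357465-170357714, plus strand): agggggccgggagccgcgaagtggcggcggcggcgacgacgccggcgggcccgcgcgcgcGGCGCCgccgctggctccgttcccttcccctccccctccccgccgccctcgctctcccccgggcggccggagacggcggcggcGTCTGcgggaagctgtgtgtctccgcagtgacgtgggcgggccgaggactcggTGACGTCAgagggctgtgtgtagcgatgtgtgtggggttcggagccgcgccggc

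Of the 9 genes, 8 had an entry in the RefSeq promoter table, and TMEM100 is named only. The SMAD-binding palindrome lay at positions -12 to -5 of SMAD6, where -1 is the base before the start, and 0.182% of 35116 promoter windows of this length hold it. SKIL held the cyclic AMP response element at -54 to -47, which 1.65% of windows hold, and the GC-rich SMAD element at -190 to -185, which 16.4% hold. BAMBI held 3 copies of the GC-rich element. The short SMAD element occurred in ID3, SMAD7, BAMBI, SKIL and TGIF1, and in 38.0% of all windows. ID1 held TATAAA at -31 to -26, overlapping a match on the other strand, and 1 CCAAT match, while ID2 held 3 CCAAT matches and TGIF1 and BAMBI 1 each. TATAAA is in 10.7% of windows and CCAAT in 32.0%. None of the other matches overlapped one another. A match is a description of letters and not a binding site.

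**Figure D1:**
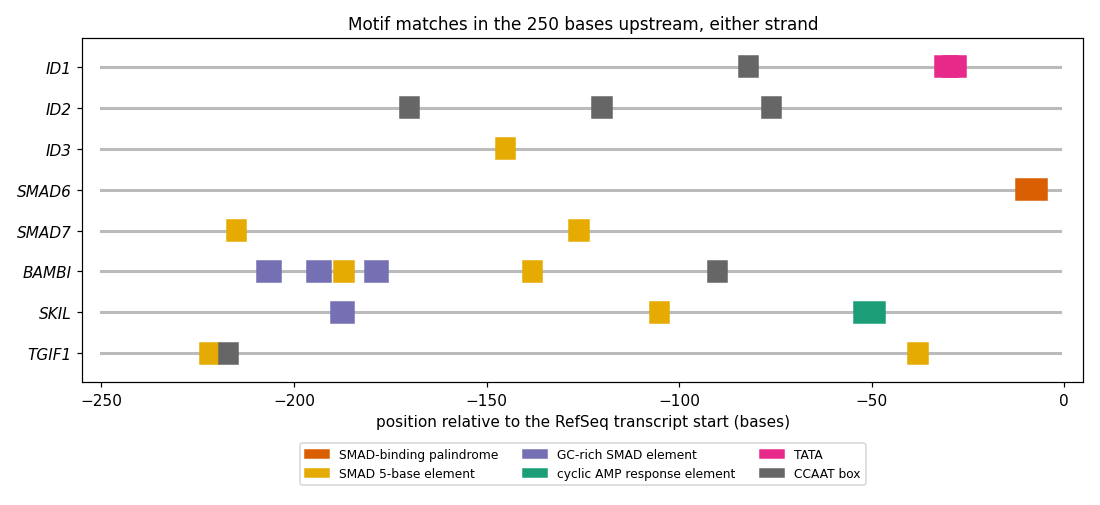
Motif matches in the 250 bases upstream of the RefSeq transcript start of 8 genes; the horizontal axis is the distance from the start in bases, each row is a gene, and each coloured box is an exact match on either strand. Among these 8 windows, the palindrome box lies in SMAD6 alone, at -12 to -5, and the cyclic AMP response element box in SKIL alone, at -54 to -47. SMAD7 and TGIF1 have further listed starts that are not shown.

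With CXXC5 overexpression, ID3, SMAD7, SKIL and TMEM100 fell and ID1 and ID2 rose against the empty vector. In the knockdown, ID3, SMAD7, SKIL, TMEM100 and BAMBI rose against scrambled shRNA and ID2 fell. The comparisons of overexpression with empty vector and of knockdown with scrambled shRNA have no array in common. Each was tested with limma on log2 values over all 12 arrays, and a probe set rose or fell where its Benjamini-Hochberg adjusted p, over all 22215 probe sets, was under 0.05. By this rule 8 of 15 member probe sets were called with overexpression (3 up, 5 down), against a background of 4.19% of all probe sets (2.27% up, 1.92% down). With knockdown 8 of 15 were called as well (6 up, 2 down), against 9.83% of all probe sets (6.13% up, 3.7% down). The arrays of the groups did not overlap for 10 of 15 member probe sets with overexpression, against 24.7% of all probe sets, and for 10 of 15 with knockdown, against 29.2%. The members were chosen with earlier results of these arrays known, so these shares describe the members and test nothing about them as a group.

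**Figure D2:**
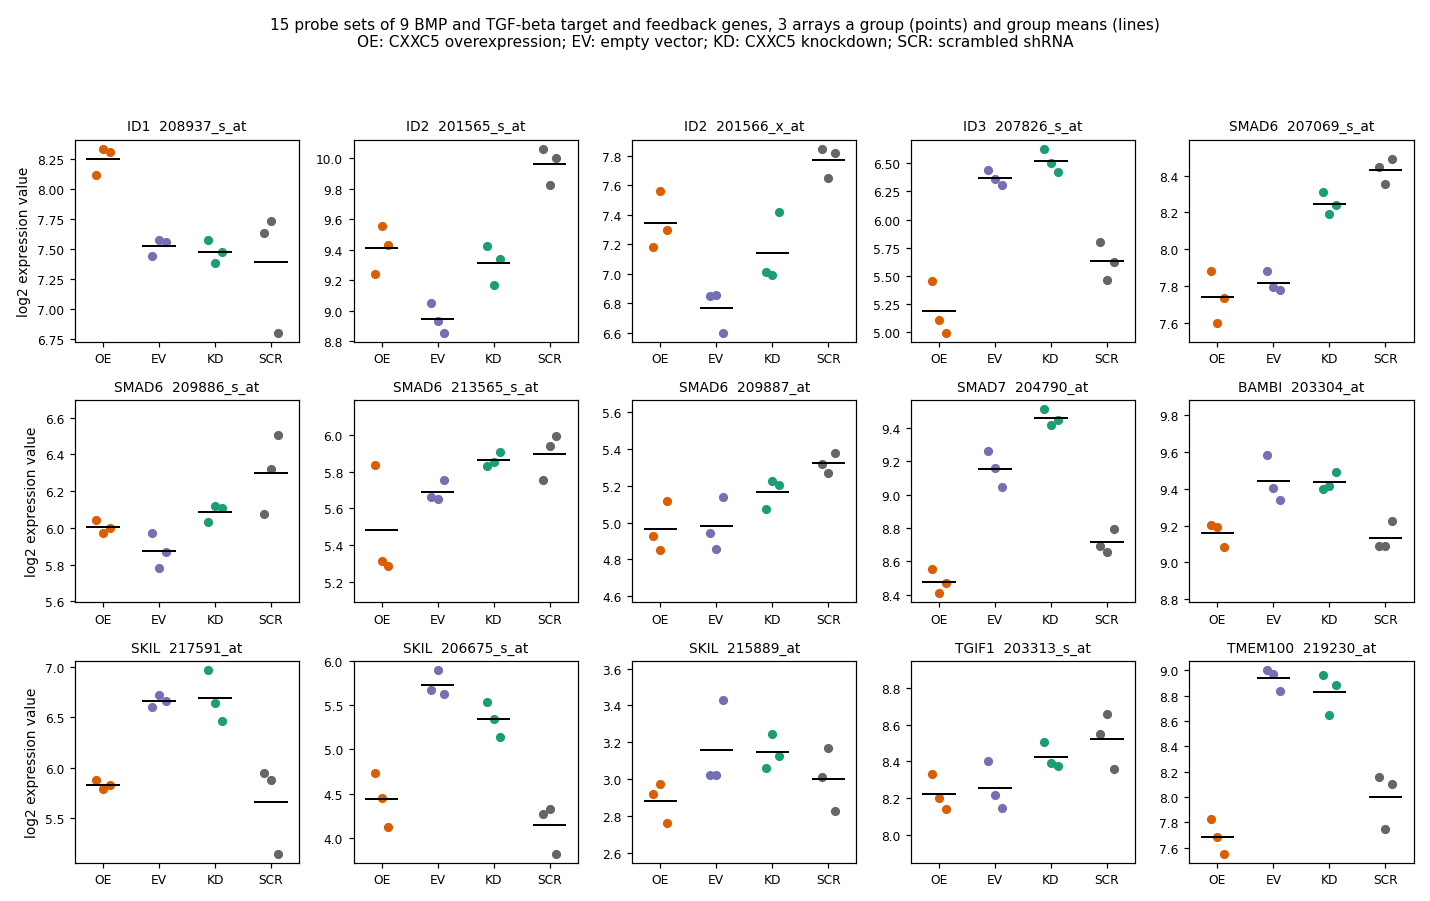
Log2 expression value (vertical axis) of each of the 15 member probe sets in every array, by group on the horizontal axis; points are arrays and lines are means of 3. ID3, SMAD7, TMEM100 and the brighter 2 SKIL probe sets sit low in the overexpression and scrambled shRNA groups and high in the empty vector and knockdown groups.

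Among the ID genes, ID3 changed most. ID3 had log2 values of 5.46, 5.11 and 4.997 in overexpression arrays, against 6.44, 6.36 and 6.31 in empty vector arrays. In knockdown arrays it had 6.63, 6.50 and 6.42, against 5.80, 5.47 and 5.62 in scrambled shRNA arrays. In both comparisons the arrays of the groups did not overlap. ID3 fell by 1.18 log2 with overexpression (SE 0.118, 2.27-fold, limma adjusted p = 0.000171) and rose by 0.89 with knockdown (SE 0.118, 1.85-fold, adjusted p = 0.000785). Both calls held when each of the 6 arrays of their comparison was left out in turn. ID3 is a gene of middling signal here, at percentile 39.98 of all probe sets, and has 1 probe set.

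ID1 behaved unlike ID3, although both are textbook targets of BMP signalling. It was high in the overexpression group alone, with 8.11, 8.33 and 8.30 there, against 7.44, 7.57 and 7.56 in empty vector arrays. The log2 difference was 0.73 (SE 0.185, 1.65-fold, limma adjusted p = 0.0493), and the groups did not overlap. This call ended when any 1 of the 6 arrays was left out, at adjusted p of 0.0762 to 0.149. Knockdown arrays had 7.58, 7.39 and 7.47 and scrambled shRNA arrays 7.63, 7.73 and 6.81, a difference of 0.09 (95% interval -0.32 to 0.49, limma adjusted p = 0.821). The low value of 6.81 belongs to the array with the weak 5′ control signal. Without it the knockdown difference was -0.20, still not past the threshold, and the ID1 difference between the overexpression and knockdown effects was 0.93 with adjusted p = 0.000579, against 0.64 and 0.128 with it.

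ID2, the brightest of the ID genes at the 81.5th percentile, was highest with scrambled shRNA. Its brighter probe set had 9.24, 9.56 and 9.43 in overexpression arrays, against 9.05, 8.93 and 8.86 in empty vector arrays. Knockdown arrays had 9.42, 9.17 and 9.34, against 10.06, 9.83 and 9.9996 in scrambled shRNA arrays. ID2 rose by 0.46 with overexpression (1.38-fold, limma adjusted p = 0.0239) and fell by 0.65 with knockdown (1.57-fold, adjusted p = 0.00183), with no overlap of arrays in either comparison. The dimmer ID2 probe set had 7.18, 7.56 and 7.30 with overexpression, against 6.85, 6.86 and 6.60 with empty vector, and 7.01, 6.99 and 7.42 with knockdown, against 7.85, 7.65 and 7.82 with scrambled shRNA. It was called in the same directions, at 0.58 and -0.63 (adjusted p = 0.0279 and 0.00969). The knockdown calls held when each of the 6 arrays was left out, and the overexpression calls ended when any 1 of 4 arrays was left out for the brighter probe set and any 1 of 5 for the other. The probe set shared by ID2 and ID2B stood at 0.06 with overexpression and -0.77 with knockdown.

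The inhibitory SMADs did not move alike. SMAD7, which blocks both BMP and TGF-beta receptors, had 8.55, 8.41 and 8.47 in overexpression arrays, against 9.26, 9.16 and 9.04 in empty vector arrays. It had 9.51, 9.41 and 9.44 in knockdown arrays, against 8.69, 8.66 and 8.79 in scrambled shRNA arrays. The groups did not overlap in either comparison. SMAD7 fell by 0.68 with overexpression (SE 0.0721, 1.60-fold, limma adjusted p = 0.000288) and rose by 0.74 with knockdown (1.67-fold, adjusted p = 8.91e-05), and both calls held when each array was left out.

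SMAD6, which acts mainly on the BMP branch, was called in neither comparison by any of its 4 probe sets. Their log2 differences ran from -0.21 to 0.13 with overexpression and from -0.21 to -0.03 with knockdown. The brightest of them had 7.88, 7.60 and 7.73 in overexpression arrays, against 7.88, 7.79 and 7.78 in empty vector arrays. Knockdown arrays had 8.31, 8.19 and 8.24, against 8.45, 8.35 and 8.49 in scrambled shRNA arrays. Both lentiviral groups were thus above both nucleofected groups, with no overlap, and the same probe set was 0.61 higher with scrambled shRNA than with empty vector (limma adjusted p = 0.00025). The 95% intervals of its differences were -0.25 to 0.09 with overexpression and -0.35 to -0.01 with knockdown.

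The dimmer SMAD6 probe sets were less clear. The second had 6.04, 5.97 and 6.00 with overexpression, against 5.97, 5.78 and 5.87 with empty vector, and 6.03, 6.12 and 6.11 with knockdown, against 6.07, 6.32 and 6.51 with scrambled shRNA. The third had 5.84, 5.32 and 5.29 with overexpression, against 5.66, 5.65 and 5.75 with empty vector, and 5.83, 5.85 and 5.90 with knockdown, against 5.76, 5.94 and 5.99 with scrambled shRNA. The dimmest had 4.93, 4.85 and 5.12 with overexpression, against 4.94, 4.86 and 5.14 with empty vector, and 5.07, 5.23 and 5.21 with knockdown, against 5.32, 5.27 and 5.38 with scrambled shRNA. Groups overlapped in the overexpression comparison for all of these, and single arrays decided 2 values. Without overexpression replicate 1 the third probe set was called at -0.39 (limma adjusted p = 0.0299), and without scrambled shRNA replicate 1 the second was called with knockdown at -0.33 (adjusted p = 0.0326). Under quantile normalization the brightest SMAD6 probe set was also called with knockdown (-0.24, adjusted p = 0.0494).

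BAMBI, a decoy receptor that is also known as a Wnt target, moved little. It had 9.20, 9.19 and 9.08 in overexpression arrays, against 9.58, 9.40 and 9.34 in empty vector arrays, and 9.40, 9.42 and 9.49 in knockdown arrays, against 9.09, 9.09 and 9.22 in scrambled shRNA arrays. No arrays overlapped in either comparison. The overexpression difference of -0.28 missed the threshold (SE 0.0759, limma adjusted p = 0.0594), and the knockdown difference of 0.30 passed it (adjusted p = 0.027), a call that ended when any 1 of 5 of the 6 arrays was left out. Under other settings the adjusted p of the overexpression difference was 0.0188 with a trended prior and 0.0388 with the brightest probe set per gene.

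Of the corepressors, SKIL moved and TGIF1 did not pass in either comparison. The brightest SKIL probe set had 5.88, 5.79 and 5.82 in overexpression arrays, against 6.60, 6.72 and 6.66 in empty vector arrays; in knockdown arrays it had 6.97, 6.65 and 6.46, against 5.95, 5.88 and 5.15 in scrambled shRNA arrays. The second SKIL probe set had 4.74, 4.45 and 4.12 in overexpression arrays, against 5.67, 5.90 and 5.63 in empty vector arrays; in knockdown arrays it had 5.54, 5.34 and 5.14, against 4.27, 4.32 and 3.82 in scrambled shRNA arrays. Both probe sets separated the groups in both comparisons, and both were lowest in the scrambled shRNA array with the weak 5′ control signal.

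SKIL fell by 0.83 (SE 0.180, limma adjusted p = 0.0239) in the brightest and fell by 1.297 (SE 0.170, adjusted p = 0.00122) in the second probe set with overexpression, and rose by 1.03 and 1.204 with knockdown (adjusted p = 0.00391 and 0.00112). The fall of 0.83 was no longer called when any 1 of the 6 arrays was left out, while the call of the second probe set held in each case. The brightest probe set lay at percentile 44.1 of signal and the second at percentile 24.8. Leaving out scrambled shRNA replicate 3 gave knockdown differences of 0.78 and 1.05, both still called. The third SKIL probe set lay at percentile 4.51 of signal, with values of 2.76 to 3.43 over all arrays, and differed by -0.27 and 0.14, neither called. TGIF1 had 8.33, 8.203 and 8.14 with overexpression, against 8.40, 8.22 and 8.15 with empty vector, and 8.51, 8.39 and 8.37 with knockdown, against 8.55, 8.66 and 8.36 with scrambled shRNA. Its groups overlapped in both comparisons, at -0.03 with overexpression (95% interval -0.23 to 0.17) and -0.10 with knockdown (95% interval -0.30 to 0.10).

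TMEM100 had 7.82, 7.68 and 7.55 in overexpression arrays, against 9.005, 8.97 and 8.84 in empty vector arrays. In knockdown arrays it had 8.96, 8.65 and 8.88, against 8.16, 7.75 and 8.11 in scrambled shRNA arrays. It fell by 1.25 with overexpression (SE 0.118, 2.38-fold, limma adjusted p = 0.000112) and rose by 0.83 with knockdown (1.77-fold, adjusted p = 0.00121), and both calls held when each array was left out. The endothelial markers VWF, CDH5, KDR, PECAM1 and TEK had a summed log2 value of 22.9 to 24.0 in overexpression arrays, against 22.6 to 24.1 in empty vector arrays, and of 23.7 to 24.3 in knockdown arrays, against 23.6 to 24.2 in scrambled shRNA arrays. The arrays of TMEM100 did not overlap in either comparison, and these marker ranges did. As 0 of 5 of these markers lay above the median, their sum cannot show whether endothelial cells had a part. That part was not tested.

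**Figure D3:**
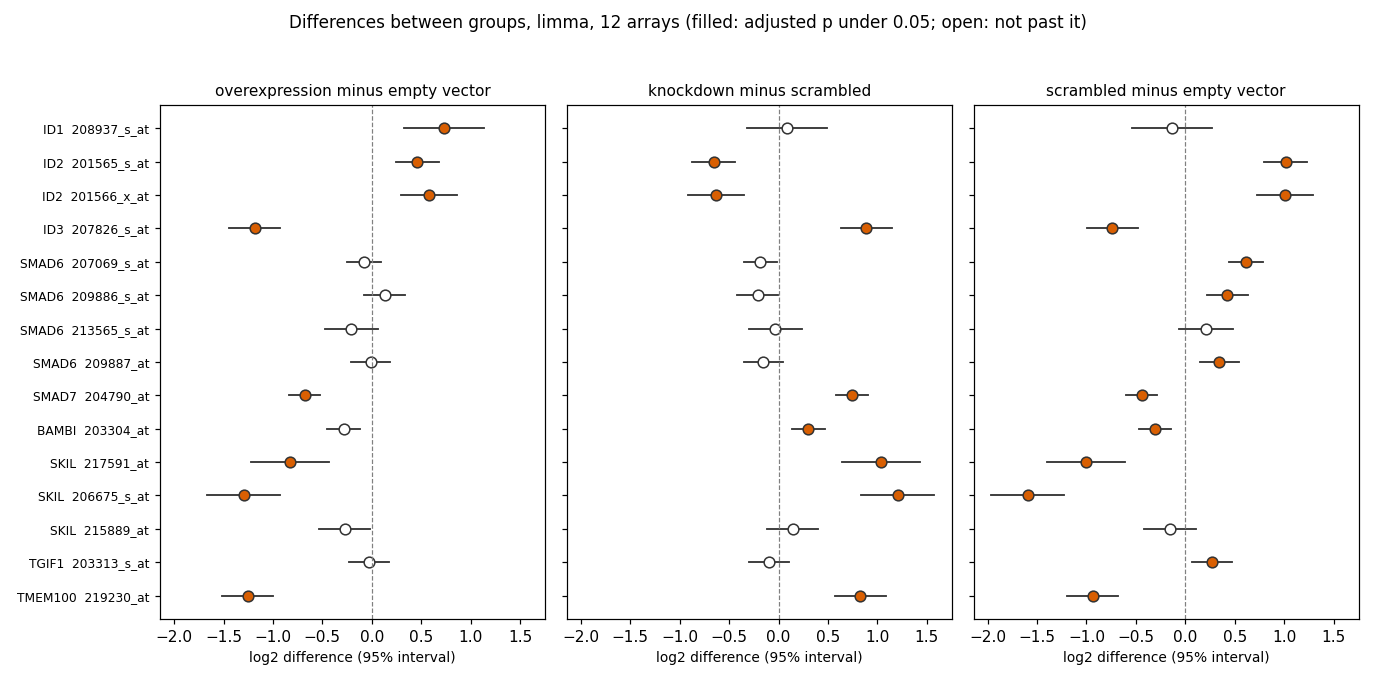
Log2 differences of the 15 member probe sets (horizontal axis) with 95% intervals in 3 comparisons, from limma over 12 arrays; filled points have an adjusted p under 0.05. ID3, SMAD7, TMEM100 and SKIL lie left of 0 with overexpression, right of 0 with knockdown, and left of 0 for scrambled shRNA minus empty vector.

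The effects of overexpression and knockdown differed in a direct test for 8 of 15 member probe sets, 2 up and 6 down, against 14.9% of all probe sets (5.82% up, 9.1% down). The difference, as the overexpression effect minus the knockdown effect, was -2.07 for ID3 (SE 0.166, limma adjusted p = 1.21e-05), -2.08 for TMEM100 (adjusted p = 1.21e-05) and -1.42 for SMAD7 (adjusted p = 4.82e-06). It was -2.50 and -1.86 for the SKIL probe sets and -0.58 for BAMBI (adjusted p = 0.00324). For ID2 it had the opposite sign, at 1.11 and 1.21 (adjusted p = 0.000298 and 0.001). These 8 calls held when each of the 12 arrays was left out in turn. SMAD6, TGIF1, the dim SKIL probe set and ID1 did not pass. Each such value equals overexpression minus knockdown plus scrambled shRNA minus empty vector, so the difference between the controls is part of it. For the brighter ID2 probe set these parts were 0.10 (limma adjusted p = 0.571) and 1.02 (adjusted p = 4.37e-05). For ID3 they were -1.33 (adjusted p = 7.35e-05) and -0.74 (adjusted p = 0.000986).

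The controls themselves differed for most members. Scrambled shRNA and empty vector arrays differed for 12 of 15 member probe sets, 6 up and 6 down, against 27.7% of all probe sets (13.4% up, 14.3% down). Their arrays did not overlap for 12 of 15, against 43.5%. ID2 was higher with scrambled shRNA by 1.02 and 1.00 log2 (limma adjusted p = 4.37e-05 and 0.000275), and 3 of 4 SMAD6 probe sets by 0.34 to 0.61. SKIL was lower by 1.00 and 1.60, TMEM100 by 0.93, ID3 by 0.74, SMAD7 by 0.44 and BAMBI by 0.31, with adjusted p-values of at most 0.0111. TGIF1 was 0.27 higher at adjusted p = 0.0499, with overlapping arrays and a call that ended when any 1 of 4 arrays was left out, and the call of the dimmest SMAD6 probe set ended without empty vector replicate 2. This comparison shares its empty vector arrays with the overexpression comparison and its scrambled shRNA arrays with the knockdown comparison, so its values are not independent of theirs.

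Across the 4 groups, 12 of 15 member probe sets differed by limma's F-test, against 27.5% of all probe sets. ID3 averaged 6.52 ± 0.10 with knockdown, 6.37 ± 0.07 with empty vector, 5.63 ± 0.17 with scrambled shRNA and 5.19 ± 0.24 with overexpression (SD, n = 3 each), from highest to lowest. Knockdown and empty vector did not differ past the threshold (0.15, limma adjusted p = 0.508). Overexpression was below scrambled shRNA by 0.44 (adjusted p = 0.0276), a call that ended when any 1 of 4 arrays was left out. SMAD7 followed the same order, at 9.46 ± 0.05 with knockdown, 9.15 ± 0.11 with empty vector, 8.71 ± 0.07 with scrambled shRNA and 8.48 ± 0.07 with overexpression. Each neighbouring step passed the threshold. The step between knockdown and empty vector (0.30, adjusted p = 0.0465) ended when any 1 of 5 arrays was left out, and that between overexpression and scrambled shRNA (-0.24, adjusted p = 0.0467) when any 1 of 6 was.

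TMEM100 averaged 8.94 ± 0.09 with empty vector, 8.83 ± 0.16 with knockdown, 8.00 ± 0.23 with scrambled shRNA and 7.69 ± 0.14 with overexpression. The step between knockdown and scrambled shRNA passed the threshold, and the others did not, since knockdown lay 0.11 below empty vector (limma adjusted p = 0.65) and overexpression 0.32 below scrambled shRNA (adjusted p = 0.0901). Without scrambled shRNA replicate 2 the last of these was called (-0.45, adjusted p = 0.03). BAMBI and the brighter 2 SKIL probe sets were also split, with empty vector and knockdown above overexpression and scrambled shRNA and no call within either pair.

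Against the empty vector, 2 of 15 member probe sets were called in the knockdown, 1 each of SMAD6 and SMAD7, both up, against 3.24% of all probe sets (2.07% up, 1.17% down). This count was 0 to 2 with single arrays left out. Against scrambled shRNA, 9 of 15 were called with overexpression, 1 up and 8 down, against 15.3% (7.52% up, 7.8% down), and 4 to 6 with single arrays left out. Among them ID1 at 0.86 (limma adjusted p = 0.0113), the brighter ID2 probe set at -0.56 (adjusted p = 0.00479) and the brightest SMAD6 probe set at -0.69 (adjusted p = 0.000339) were still called when each array was left out, and the other 6 were not.

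ID2 had another order. Its brighter probe set averaged 9.96 ± 0.12 with scrambled shRNA, 9.41 ± 0.16 with overexpression, 9.31 ± 0.13 with knockdown and 8.95 ± 0.10 with empty vector. Overexpression and knockdown did not differ past the threshold (0.10, limma adjusted p = 0.571). ID1 was highest with overexpression, at 8.25 ± 0.12. Its other means, 7.52 ± 0.07 with empty vector, 7.48 ± 0.09 with knockdown and 7.39 ± 0.51 with scrambled shRNA, were not separated by any call.

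Over the 12 arrays, the brightest probe sets of ID3, TMEM100 and SMAD7 varied together, with Pearson correlations of 0.97 between ID3 and TMEM100 and 0.96 between ID3 and SMAD7. With ID1, ID3 had a correlation of -0.60 and with ID2 one of -0.50, and SMAD6 and TGIF1 had 0.80. These points share 4 groups of 3 arrays, and the values describe the pattern without a test. Among single-gene probe sets in the upper 60% by signal, the genes most like ID3 were TSPAN13 (0.97), TMEM100, PLCXD1 (0.97), AGFG1 (0.97) and HK2 (0.96). Those most like ID1 were RESF1 (0.95), CD53 (0.95), RNF13 (0.93), CTSS (0.92) and SPTBN1 (0.92). CD53, a tetraspanin of blood cells, averaged 11.14 with overexpression and 10.70 to 10.78 in the other groups, and TSPAN13 is another tetraspanin.

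The rest of the pathway was described by 7 lists, with 221 probe sets for 113 genes on the array. In all, 7 of these probe sets rose and 4 fell with overexpression, which is 4.98% against the background of 4.19%. With knockdown 7 rose and 13 fell, 9.05% against 9.83%. Between the controls, 51 were higher and 26 lower with scrambled shRNA than with empty vector, 34.8% against 27.7%. The knockdown differences are measured from scrambled shRNA, and how far this control difference enters them was not tested. The median log2 difference over these 221 probe sets was -0.00 with overexpression and -0.03 with knockdown. Over the 15 member probe sets it was -0.21 and 0.09, and over all probe sets -0.00 and -0.01. An unadjusted p under 0.05 was found for 17.2% of all probe sets with overexpression and 24.5% with knockdown.

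Of 29 ligand genes, 1 rose and 1 fell with overexpression and 1 fell with knockdown, and 4.26% and 2.13% of their 47 probe sets were called, against 4.19% and 9.83% of all probe sets. GDF15, a stress-induced cytokine of this family, averaged 10.94 ± 0.12 with overexpression and 9.9996 ± 0.21 with empty vector (SD, n = 3 each), a rise of 0.94 (limma adjusted p = 0.00453). It averaged 10.81 ± 0.0097 with knockdown and 12.09 ± 0.36 with scrambled shRNA, a fall of 1.29 (adjusted p = 0.000355), and a second GDF15 probe set stood at 0.36 and -0.29. INHA, the inhibin alpha subunit, fell by 0.63 with overexpression (adjusted p = 0.00282). These calls held when each array was left out. The brighter GDF15 probe set was also 2.09 higher with scrambled shRNA than with empty vector (limma adjusted p = 4.13e-06).

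Of 12 receptor genes, ACVR1B and ACVR2B, activin receptors of type I and type II, rose with overexpression and fell with knockdown. In all, 3 of 20 receptor probe sets were called with overexpression and 4 with knockdown, 15% and 20% against 4.19% and 9.83%. The brightest called ACVR1B probe set rose by 0.52 (limma adjusted p = 0.00242) and fell by 0.49 (adjusted p = 0.00216), and 4 of its 6 probe sets were called in neither comparison. This brightest probe set was also 0.62 higher with scrambled shRNA than with empty vector (limma adjusted p = 0.000212). ACVR2B rose by 0.49 and fell by 0.44 (adjusted p = 0.0263 and 0.0227), calls that ended when any 1 of 5 and any 1 of 3 arrays was left out. BMPR2, the BMP type II receptor, rose with knockdown by 0.51 (adjusted p = 0.0212) in the dimmer of its 2 probe sets, a call that ended when any 1 of 3 arrays was left out, and its brighter probe set stood at 0.46 (adjusted p = 0.0586, not called). The dimmer and brighter BMPR2 probe sets were each 0.73 lower with scrambled shRNA than with empty vector (limma adjusted p = 0.0014 and 0.00284). ACVR2B was 0.33 higher with scrambled shRNA than with empty vector (limma adjusted p = 0.0375).

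Among the signalling SMADs, SMAD1 was called, with knockdown. With overexpression 0 of 14 probe sets were called by limma, against 4.19% of all probe sets, with 1 at an unadjusted p under 0.05; SMAD1 at -0.26 (adjusted p = 0.0821) and SMAD3 at 0.15 (adjusted p = 0.291) had the smallest p-values. With knockdown 2 of 14 were called, 14.3% against 9.83%, and both belonged to SMAD1, which carries BMP signals. SMAD1 rose by 0.42 in its brighter probe set (limma adjusted p = 0.0132) and by 0.28 in the other (adjusted p = 0.0343). The call of the brighter one ended without knockdown replicate 1, at 0.34. This brighter probe set averaged 8.35 with knockdown, 8.34 with empty vector and 7.93 with scrambled shRNA. It was 0.41 lower with scrambled shRNA than with empty vector (limma adjusted p = 0.00662). The other SMAD1 probe set stood at -0.19 between the controls (adjusted p = 0.0817, not called).

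Of the secreted antagonists, FST was called, with knockdown. With overexpression 0 of 20 probe sets were called by limma, against 4.19% of all probe sets, with 1 at an unadjusted p under 0.05; LTBP2 stood at 0.31 (limma adjusted p = 0.152) and CER1 at 0.27 (adjusted p = 0.293). With knockdown 1 of 20 was called, 5% against 9.83%, while 9 had an unadjusted p under 0.05 and the list median was -0.12, against -0.01 over all probe sets. This was FST, the activin-binding follistatin, which fell by 0.30 (limma adjusted p = 0.0338) in a probe set at percentile 10.99 of signal, a call that ended when any 1 of 4 arrays was left out. A brighter FST probe set, at percentile 52.4, stood at -0.24 (adjusted p = 0.18, not called). The called probe set averaged 3.74 with knockdown, 3.51 with empty vector and 4.04 with scrambled shRNA. It was 0.53 higher with scrambled shRNA than with empty vector (limma adjusted p = 0.000734).

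Of 20 intracellular regulators, 2 were called in each comparison, 5% of their 40 probe sets against 4.19% with overexpression and 9.83% with knockdown. NEDD4L, a ubiquitin ligase of SMADs, rose by 0.32 and the kinase HIPK2 fell by 0.54 with overexpression (limma adjusted p = 0.0202 and 0.0254), both calls that ended when any 1 of 4 arrays was left out. The other probe sets of NEDD4L and HIPK2 stood at 0.14 and -0.20, not called. The SMAD-binding repressors ZEB2 and ZEB1 fell with knockdown by 0.52 and 0.47 (adjusted p = 0.00145 and 0.00391), calls that held when each array was left out. Further ZEB1 probe sets stood at 0.06 and -0.45, neither called. The called ZEB1 probe set was also 0.71 higher with scrambled shRNA than with empty vector (limma adjusted p = 0.000128).

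Of 27 other target genes, 2 rose and 1 fell with overexpression, and 3 rose and 5 fell with knockdown. This is 7.41% of their 54 probe sets with overexpression and 16.7% with knockdown, against 4.19% and 9.83% of all probe sets. HES1, a repressor that BMP and Notch signals induce, fell by 0.66 with overexpression (limma adjusted p = 0.00355) and rose by 0.44 with knockdown (adjusted p = 0.019) in the same probe set; of its 2 others, 1 was called the same way and 1 stood near 0. ZFP36 and CDKN1A moved the other way, at 0.55 and 0.53 with overexpression and at -1.36 and -0.84 with knockdown (adjusted p from 1.22e-06 to 0.00273). They were also 1.45 and 1.18 higher with scrambled shRNA than with empty vector (limma adjusted p = 5.05e-07 and 2.47e-06). ZFP36 averaged 7.41 with knockdown, 7.32 with empty vector and 8.77 with scrambled shRNA. Between these controls 44.4% of the list's probe sets were called, against 27.7% of all. JUNB fell by 0.90 with knockdown (adjusted p = 4.24e-05). THBS1 rose by 1.53 with knockdown in 1 of 5 probe sets (adjusted p = 0.000574), while the other 4 stood between -0.14 and 0.38. That THBS1 probe set was 1.27 lower with scrambled shRNA than with empty vector (limma adjusted p = 0.000756).

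The list of E proteins and related helix-loop-helix factors held 1 call, in TCF3 with knockdown. Of 26 probe sets for TCF3, TCF4, TCF12, TAL1 and LYL1, 0 were called by limma with overexpression, against 4.19% of all probe sets, and 2 had an unadjusted p under 0.05, the smallest adjusted p being 0.196 for TCF3 at -0.41. With knockdown 1 of 26 was called, 3.85% against 9.83%, and 5 had an unadjusted p under 0.05. The call was for 1 of 13 TCF3 probe sets, which fell by 0.49 (limma adjusted p = 0.0193), a call that ended when any 1 of 3 arrays was left out, and the other 12 lay between -0.21 and 0.17. The called TCF3 probe set averaged 6.57 with knockdown, 6.50 with empty vector and 7.06 with scrambled shRNA. It was 0.56 higher with scrambled shRNA than with empty vector (limma adjusted p = 0.0045).

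**Figure D4:**
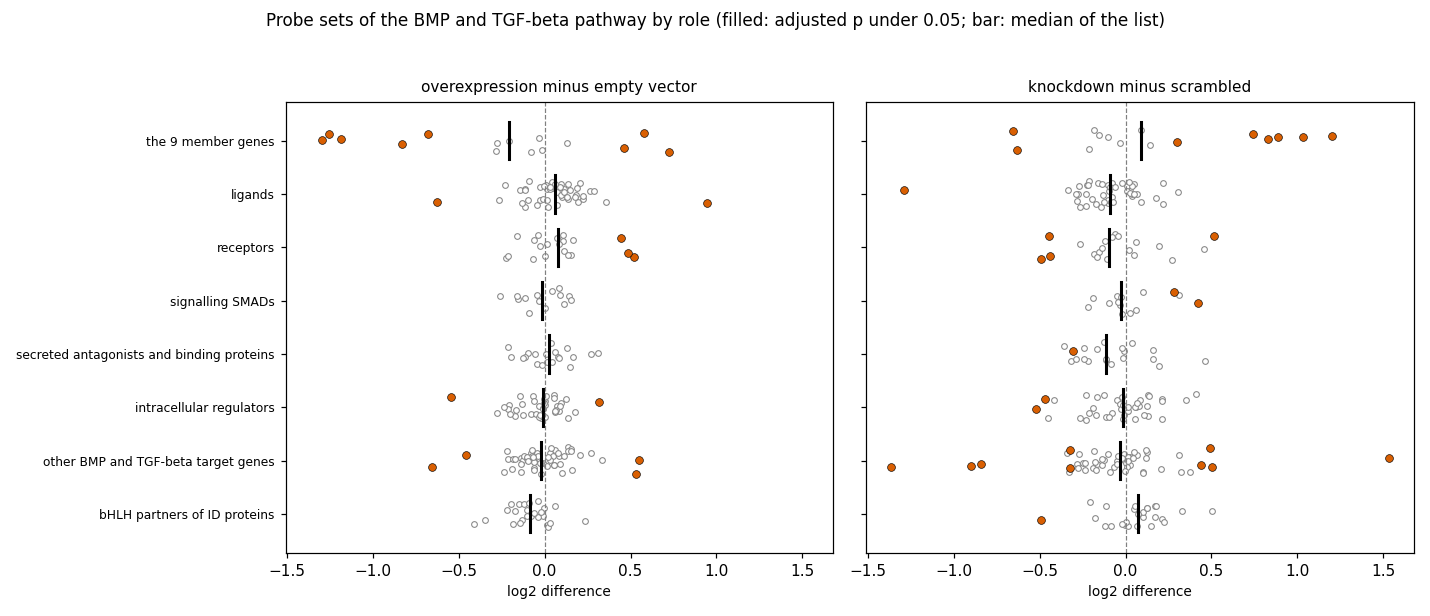
Log2 differences (horizontal axis) of the member probe sets and of 7 pathway lists (rows) with overexpression and with knockdown; each point is a probe set, filled points have an adjusted p under 0.05, and bars are list medians. The member row holds 8 filled points in each panel, while the signalling SMAD and secreted antagonist rows hold 0 with overexpression.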

How the data were processed

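Affymetrix 3′ arrays, 1 per sample, were used. The authors deposited values that appear to be log2, judged from their range of 2.07 to 14.4. They used Affymetrix Expression Console, per the submitters' processing notes; its version and its summarisation method: not given in the sources used here. Array medians were 6.64 to 6.70. Precision depends on having 12 arrays, with no detection calls used here.

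Of 22277 probe sets, 62 controls were left out. The platform annotation gave 1 symbol for 19064 of the rest, several for 1043 and none for 2108, and 19052 were matched by gene identifier to RefSeq (GRCh38.p14), which changed 0 symbols. A linear model in limma 3.58.1 (R 4.3.3) had 1 coefficient per group over all arrays (8 residual degrees of freedom) and default eBayes. Tests were two-sided, with Benjamini-Hochberg adjustment over 22215 probe sets. The model was tested on simulated data. In each pathway list the 4 called genes with the largest change were named for the overexpression and knockdown comparisons, or the 2 with the smallest p where none was called.

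The members and lists were chosen with earlier results of these data known. The alternatives tried were median centring, quantile normalization, a filter on the dimmest 40%, gene-level values (brightest or mean probe set), fits on 6 arrays, a trended and robust prior, weighting of arrays, blocking by replicate number, stricter and looser thresholds, and omission of each array. Replicates correlated at 0.996 to 0.998, and 0 pairs of arrays were identical. Figures were drawn with matplotlib 3.10.9.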

Additional observations from a re-analysis of the deposited data

How the results depend on the processing

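No called member value changed sign in any of the 1756 recomputed member values, and 29 of the 36 member calls in the overexpression, knockdown, control and difference comparisons held in every alternative that could give a value, other thresholds aside. The exceptions were ID1, ID2 (both probe sets) and the brightest SKIL probe set with overexpression, BAMBI with knockdown, and TGIF1 and the dimmest SMAD6 probe set between the controls. The count of 8 member probe sets called with overexpression was 4 at an adjusted p under 0.01, and 4 to 7 when each array of the comparison was left out; ID3, SMAD7, TMEM100 and the second SKIL probe set were called each time. It was 9 without scrambled shRNA replicate 3, an alternative chosen after seeing the data. Left-out arrays gave 7 to 8 calls with knockdown, 8 to 9 for the difference of the effects, 10 to 12 between the controls and 10 to 13 for the F-test. ID3 lay just below the filter on the dimmest 40% and had no value there. The second SKIL probe set (percentile 24.8), the third SKIL and the third and dimmest SMAD6 probe sets had none either. The second SKIL probe set also had no value of its own in the gene-level fits. With the replicate number as a replicate block, 7 member probe sets were called with overexpression, ID1 being lost at adjusted p = 0.055, 8 with knockdown, 8 for the difference of the effects, 12 between the controls and 13 by the F-test; same-numbered arrays correlated in their deviations at -0.06 to 0.30, not above 0.1 in every pair, so the numbers were not taken to pair the arrays. Each group holds 3 arrays, and the cause of these changes was not tested.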
